A study of Mus musculus with 8 samples.

Results

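Keratins are the intermediate filament proteins of epithelial cells, and each filament is built from a type I and a type II keratin. Krt7 and Krt8 (type II) with Krt18 and Krt19 (type I) are the simple keratins, which line the alveoli and conducting airways in single-layered epithelium. Krt5 (type II) with Krt14, Krt15 and Krt17 (type I) mark basal cells of the proximal airway, Krt4 (type II) belongs to stratified and proximal epithelium, and Trp63 encodes p63, the transcription factor by which basal cells are recognised. The 10 genes were chosen by symbol, with earlier results of these data known, and all 10 were present among the 22756 genes measured. The question asked of them was how the basal and proximal genes compared with the simple keratins across genotype and cigarette smoke (CS).

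RNA-Seq was performed on distal lung cells of adult mice on a mainly C57BL/6 background, in 8 libraries from 4 groups. All mice carried a tauGFP reporter behind an internal ribosome entry site at Chrna7, the gene of the nicotinic α7 receptor (Chrna7-IRES-tauGFP, α7G). The α7E260A:G mice carried in addition the E260A point mutation (Chrna7-E260A-IRES-tauGFP), which restricts the calcium current of the receptor and was made in the α7G line, so that neither genotype is an unmodified wild type. Mice of each genotype breathed room air (control) or side-stream CS, given for 4 months on 5 days of the week. Each of the 4 groups had 1 male and 1 female library, so replicates differed in sex, and the number of mice behind a library is not given in the sources used here. A p-value below therefore sets a difference between groups against the spread between the male and female libraries within groups. Lavage cells and the trachea had been removed, and CD45-positive cells had been depleted with magnetic beads.

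Depth was similar across libraries, at 8020726 to 10944100 counts in coding sequence (CDS), and 3 counts, taken as the floor of detection, corresponded to 0.274 to 0.374 reads in each 1000000 CDS reads (RPM). The epithelial label was checked on its markers. Epcam, the epithelial surface protein used to describe the cells, had 78.5 to 212 RPM and was detected in every library, whereas Ptprc, which encodes CD45 itself, had 771 to 1935 RPM and exceeded Epcam per kilobase of CDS in 7 of 8 libraries. All 6 measured CD45-positive cell markers (Ptprc, Marco, Chi3l3, Mrc1, Cd68 and Ear2) were detected in every library, and their summed level was 10241 to 16462 RPM in α7G and 23266 to 37981 RPM in α7E260A:G. Ptprc alone had 1224 ± 552 RPM (SD, n = 4) in α7G and 1267 ± 460 RPM in α7E260A:G. The slope of log2 level on CDS length also differed between libraries, from -0.28 in the α7E260A:G control female to 0.39 log2 units per doubling of length in the α7E260A:G control male.

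The simple keratins were abundant in all 8 libraries and the basal and proximal genes were low. Per kilobase of CDS (RPKM), Krt19 was highest at 614 ± 156 (SD, n = 8), followed by Krt18 at 141 ± 59.2, Krt8 at 95.0 ± 34.6 and Krt7 at 69.8 ± 40.7. The last 3 overlapped in their spread over libraries, although Krt18 was above Krt8 in each of the 8. Krt15 came next at 13.3 ± 10.1 RPKM and Krt5 at 2.15 ± 1.69 RPKM. Krt17 (0.467 ± 0.366 RPKM), Krt4 (0.438 ± 0.371), Krt14 (0.225 ± 0.308) and Trp63 (0.154 ± 0.137) were lowest, and these neighbours in the order did not differ beyond their spread. Krt19 ranked 194th and Trp63 15704th of 22756 genes by mean RPKM.

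**Figure D1:**
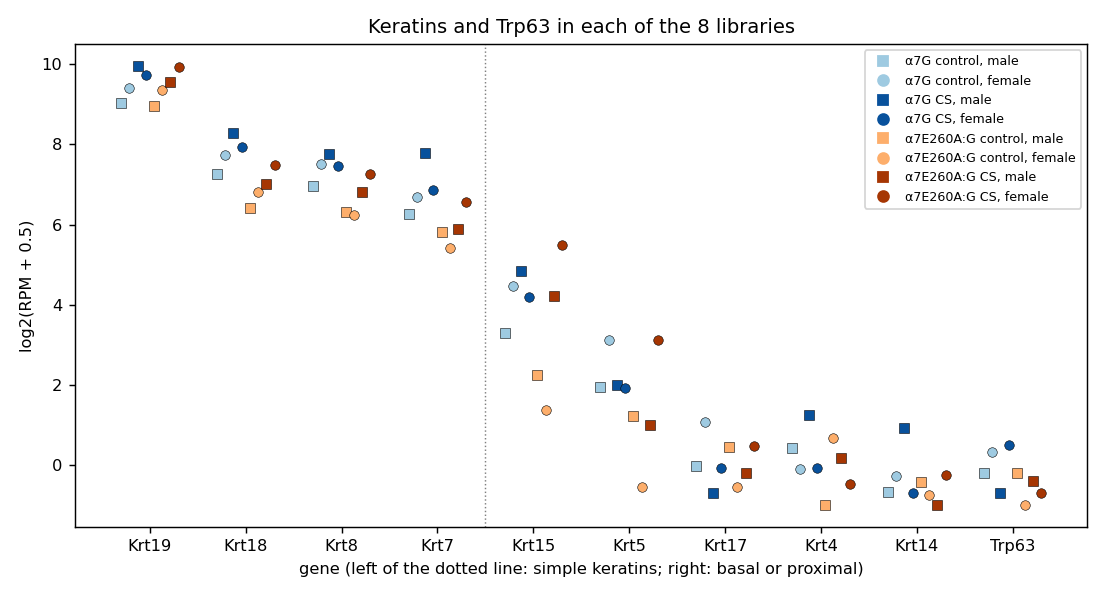
Level of each gene, as log2(RPM + 0.5), in the 8 libraries; blue is α7G and orange to brown α7E260A:G, dark symbols are CS, squares male and circles female. The 4 simple keratins lie to the left of the dotted line, far above Krt17, Krt4, Krt14 and Trp63, while Krt15 spans 2.10 to 44.6 RPM.

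Trp63 was near the floor throughout, with 25 reads over all 8 libraries. Its counts in male and female libraries were 3 and 7 in α7G control, 1 and 8 in α7G CS, 3 and 0 in α7E260A:G control and 2 and 1 in α7E260A:G CS, so that 2 of 8 libraries, the female α7G pair, lay above 3 counts. Krt14, the usual type I partner of Krt5, had 12 reads in the α7G CS male library and 0 to 3 in each of the others. Krt17, a keratin of basal and stressed epithelium, had 1 to 15 reads, and Krt4 had 0 to 16. With 50 reads or fewer in all, these 4 genes fell under the minimum mean count of 10 and were not tested; no difference in them was detectable at this depth, and the shared Krt14 and Krt17 sequence adds to the uncertainty. The coding sequences of Krt14 and Krt17 were 82.9% identical over 1301 aligned bases, and 16.8% of the 50-base words of Krt14 also occurred in Krt16 or Krt17. The longest identical stretch was 71 bases, and it is shown because a read falling wholly inside it cannot be assigned to either gene:

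Krt14 and Krt17: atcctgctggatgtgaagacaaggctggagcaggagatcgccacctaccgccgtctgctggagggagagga

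Krt14 (chr11:100064476-100068862, mm9, minus strand) and Krt17 (chr11:100117531-100122343, minus strand) lie in the type I keratin cluster with Krt15 (chr11:99993072-99997263, minus strand) and Krt19 (chr11:100002124-100009979, minus strand). The type II members are on chromosome 15, namely Krt7 (chr15:101241474-101260744, plus strand), Krt5 (chr15:101537501-101543322, minus strand), Krt4 (chr15:101748967-101755166, minus strand) and Krt8 (chr15:101827142-101834773, minus strand). Krt18 (chr15:101858647-101862457, plus strand) is the type I gene that sits beside them, next to its filament partner Krt8. Trp63 is at chr16:25683849-25892188, plus strand. Of the other measured genes, 10.8% of the 50-base words of Krt5 were shared with Krt6a, Krt6b or Gm5414; Krt6a and Krt6b had no read in any library. For Krt7, Krt19, Krt4 and Trp63 no such word was shared with another coding sequence.

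The mean level of each simple keratin was higher in the CS libraries than in the controls in both genotypes, but none of these 4 genes passed the test. Krt19, which lacks most of the tail domain of other keratins, had 527 and 679 RPM in the male and female α7G controls and 997 and 850 RPM after CS. In α7E260A:G it had 501 and 659 RPM in the controls and 750 and 979 RPM after CS. The 4 CS libraries were all above the 4 control libraries, which held for none of the other 9 genes and for 1.84% of the 13637 genes tested.

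Krt18 had 152 and 214 RPM in the α7G controls against 311 and 246 RPM after CS, and 85.2 and 112 RPM in the α7E260A:G controls against 130 and 178 RPM after CS. Its partner Krt8 had 124 and 183 RPM in the α7G controls against 217 and 175 RPM after CS, and 79.1 and 74.7 RPM in the α7E260A:G controls against 112 and 153 RPM after CS. Krt7, found in alveolar and airway epithelium and in mesothelium, had 76.3 and 103 RPM in the α7G controls against 219 and 116 RPM after CS, and 55.3 and 42.4 RPM in the α7E260A:G controls against 59.0 and 94.5 RPM after CS. Krt7, Krt18 and Krt19 were higher with CS in 4 of 4 pairs of the same genotype and sex, as were 11.4% of the genes tested, and Krt8 was higher in 3 of 4, the α7G females being the exception.

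**Figure D2:**
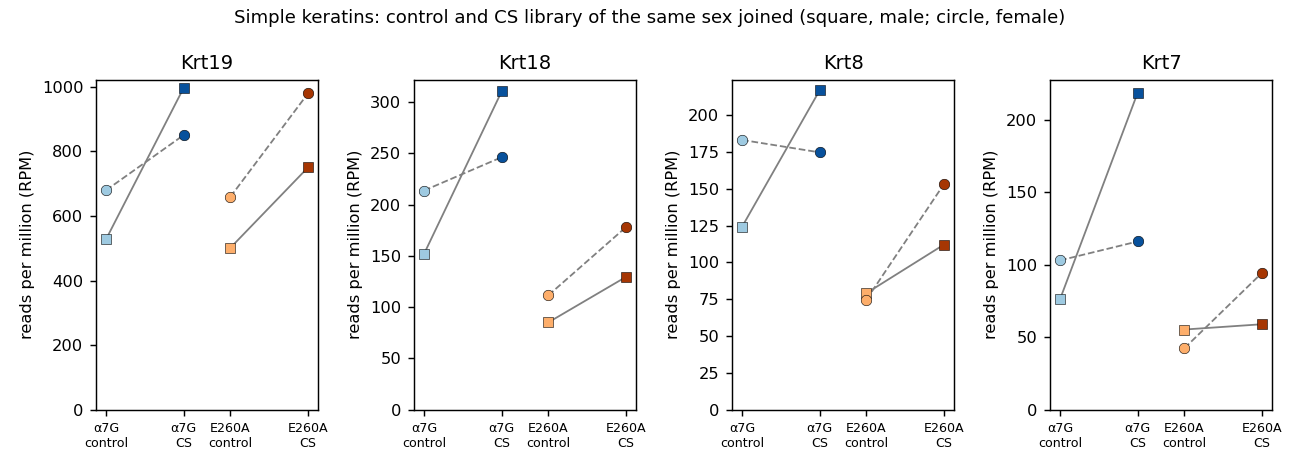
RPM of the 4 simple keratins, each panel with its own axis from 0, with the control and CS library of the same genotype and sex joined (solid lines male, dashed lines female). Every line slopes up except that of Krt8 in α7G females (183 to 175 RPM), and the α7E260A:G symbols of Krt18, Krt8 and Krt7 lie low.

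With edgeR's quasi-likelihood test and Benjamini-Hochberg adjustment over 13637 genes, 0 of the 6 tested members passed for CS in α7G, where 0.0% of all genes did, and 0 passed for CS in α7E260A:G, where 0.00733% did. In α7G the log2 fold changes of the simple keratins were 1.03 ± 0.40 (SE) for Krt7, 0.75 ± 0.36 for Krt19, 0.74 ± 0.37 for Krt18 and 0.48 ± 0.33 for Krt8. In α7E260A:G they were 0.74 ± 0.33 for Krt8, 0.63 ± 0.40 for Krt7, 0.57 ± 0.37 for Krt18 and 0.50 ± 0.35 for Krt19. These sizes changed when single libraries were left out. Without the α7E260A:G CS female they were 0.33, 0.08, 0.15 and 0.12 in the same order. Over all libraries left out in turn they reached 1.04, 1.01, 1.01 and 0.94. The highest of Krt8 and Krt7 came without the α7E260A:G CS male, and of Krt18 and Krt19 without the α7E260A:G control female. Leaving out a library of a group also leaves its sexes unmatched with the other group. Between same-sex α7E260A:G libraries, RPM with CS over control was 1.497 in males and 1.487 in females for Krt19. The same ratios were 1.521 and 1.596 for Krt18, 1.417 and 2.052 for Krt8, and 1.066 and 2.228 for Krt7. In α7G, the log2 fold change of Krt7 was 0.49 without the CS male and 1.39 without the CS female. Without the control male and the control female, respectively, Krt8 was 0.19 and 0.83, Krt18 0.48 and 1.05, and Krt19 0.54 and 0.98. The median of the 4 was 0.74 in α7G and 0.60 in α7E260A:G, where the medians over all genes were 0.00 and -0.02. The difference between the genotypes in the CS change ranged from -0.40 ± 0.57 for Krt7 to 0.26 ± 0.46 for Krt8, and no member passed the test of this interaction (0 of 6, as 0.0% of all genes).

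Averaged over the genotypes, on the same libraries, CS against control gave log2 fold changes of 0.83 ± 0.28 for Krt7, 0.65 ± 0.26 for Krt18, 0.62 ± 0.25 for Krt19 and 0.61 ± 0.23 for Krt8; without the α7E260A:G CS female they were 0.55, 0.44, 0.43 and 0.40. All 4 adjusted p-values were 0.645 by edgeR's quasi-likelihood test, so that 0 members were called, as 0.0% of all genes were. Before adjustment the 4 p-values lay between 0.0203 and 0.0395; 3.18% of the genes tested were higher with CS at an unadjusted p under 0.05. Mesothelium also contains these keratins. Msln, a defining mesothelial marker, was higher with CS in each of the 4 pairs (42.5 to 90.7, 56.9 to 64.1, 19.4 to 34.7 and 28 to 54.2 RPM), as were 11.4% of the genes tested. The 4 mesothelial markers (Msln, Upk3b, Wt1 and Lrrn4) were all detected. Of these, 3 had a fitted log2 fold change above 0 for CS averaged over genotypes and 1 below 0. They summed to 36.4 to 80.3 RPM in controls and 53.1 to 110 RPM after CS. Their part in the keratin values was not tested. In such bulk libraries, fewer cells of a type and less RNA per cell cannot be told apart.

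**Figure D3:**
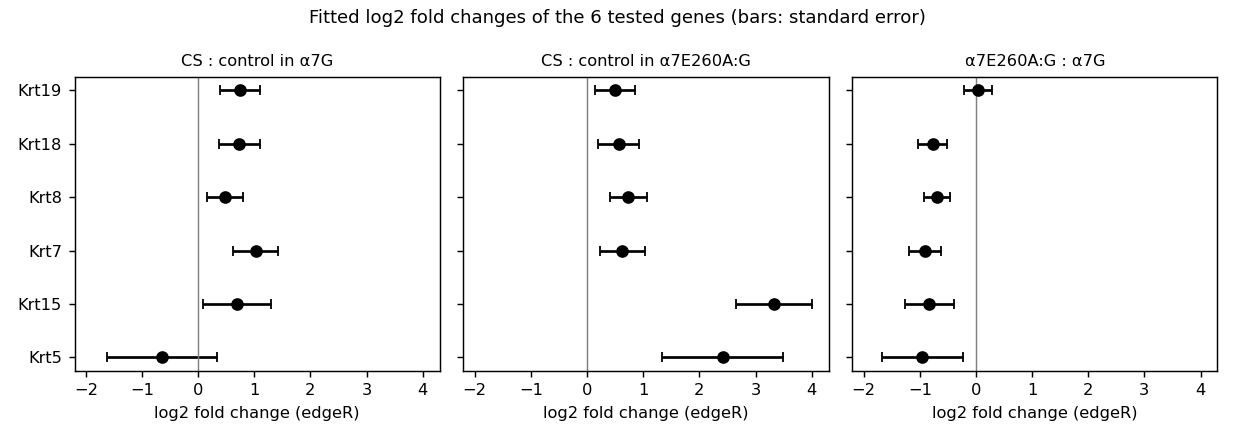
edgeR log2 fold changes of the 6 tested genes with standard errors, for CS against control in α7G (left), CS against control in α7E260A:G (middle) and α7E260A:G against α7G (right). The simple keratins lie at 0.48 to 1.03 and 0.50 to 0.74 for CS, and Krt15 lies at 3.33 for CS in α7E260A:G; none passed at an adjusted p of 0.05.

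To set the keratins against an epithelial marker, their counts were divided by those of Epcam in the same library. Whether Epcam follows the amount of epithelial RNA was not tested. The ratio to Epcam was chosen after the values had been seen and is given as a description. Krt8 to Epcam was 0.890 to 0.972 in the 4 control libraries and 1.02 to 1.66 in the 4 CS libraries. Krt18 to Epcam was 0.959 to 1.36 in controls and 1.46 to 1.93 after CS, and Krt7 to Epcam was 0.515 to 0.623 in controls and 0.692 to 1.03 after CS. For Krt8, Krt18 and Krt7 the CS and control libraries thus did not overlap, across both genotypes and sexes, as for 0.352% of 13636 genes divided by Epcam in the same way.

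The difference in Krt8 to Epcam was small in α7G (0.947 to 1.02 in males and 0.972 to 1.04 in females) and larger in α7E260A:G (0.890 to 1.43 and 0.907 to 1.66). Krt7 to Epcam went from 0.582 to 1.03 in males and 0.547 to 0.692 in females of α7G. In α7E260A:G it went from 0.623 to 0.751 and from 0.515 to 1.02. Krt18 to Epcam went from 1.16 to 1.46 and 1.13 to 1.47 in α7G. In α7E260A:G it went from 0.959 to 1.65 and 1.36 to 1.93. A genotype difference in these ratios was not tested. Krt19 to Epcam was also higher with CS in 4 of 4 pairs, by 1.17 to 1.69 times (3.62% of the genes divided by Epcam were higher in all 4), but its range in controls (3.61 to 8.0) overlapped that after CS (4.70 to 10.6). Divided by Cdh1, which encodes E-cadherin, Krt7, Krt8 and Krt18 were again higher in 4 of 4 pairs and Krt19 in 3 of 4, but the CS and control ranges overlapped for all 4. Cdh1 itself varied from 74.7 to 293 RPM.

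Between genotypes, Krt7, Krt8 and Krt18 were lower in α7E260A:G than in the α7G library of the same sex and exposure in 4 of 4 pairs, which held for 15.5% of the genes tested. The levels were 62.8 ± 22.3 RPM (SD, n = 4) against 129 ± 62.4 RPM for Krt7, 105 ± 36.4 against 175 ± 38.3 RPM for Krt8 and 126 ± 39.2 against 231 ± 66.1 RPM for Krt18. The ranges overlapped for each of them. Krt19 was 722 ± 200 RPM in α7E260A:G and 763 ± 204 RPM in α7G.

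The log2 fold change of α7E260A:G over α7G was -0.91 ± 0.28 for Krt7, -0.77 ± 0.26 for Krt18 and -0.69 ± 0.23 for Krt8, against 0.03 ± 0.25 for Krt19. None passed by edgeR's quasi-likelihood test (adjusted p = 0.256, 0.291, 0.288 and 0.984), so that 0 of 6 members were called, against 0.0953% of all genes. Unadjusted p-values of Krt7, Krt18 and Krt8 were 0.0133, 0.0192 and 0.0187, and 5.49% of genes were lower in α7E260A:G at an unadjusted p under 0.05. Epcam was 85.5 ± 6.19 RPM in α7E260A:G and 175 ± 34.3 RPM in α7G, a difference of the same direction. The summed levels of 7 alveolar type II markers were 18630 to 28437 RPM in α7G and 4176 to 13659 RPM in α7E260A:G. Those of 7 alveolar type I markers were 416 to 488 and 167 to 342 RPM, and all 14 were detected. The fitted genotype change was also below 0 for all 4 club, 4 goblet, 4 endothelial and 4 mesothelial markers and 4 of 5 ciliated markers. It was above 0 for all 6 CD45-positive, 4 fibroblast and 2 tested smooth muscle markers, and for 1 of 2 tested cartilage markers. The part of these cells in the keratin values was not tested.

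Krt19 thus differed from its fellow simple keratins in proportion. Counts of Krt19 per count of Krt18 were 3.47, 3.18, 3.21 and 3.45 in the α7G libraries (control male and female, then CS male and female) and 5.88, 5.90, 5.79 and 5.50 in the α7E260A:G libraries. The genotypes did not overlap, the mean was 3.33 ± 0.155 (SD, n = 4) in α7G and 5.77 ± 0.187 in α7E260A:G, the CS and control values overlapped in α7G, and in α7E260A:G both CS values lay slightly below both controls. Of 13636 genes divided by Krt18 in the same way, 16.4% had all α7E260A:G libraries above all α7G libraries, and 1.75% were separated by at least the gap of Krt19. This ratio was also picked after seeing the values, and no test was made of it.

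Krt19 to Krt8 was 3.71 to 4.87 in α7G and 6.34 to 8.82 in α7E260A:G, and Krt19 to Krt7 was 4.56 to 7.33 and 9.06 to 15.5. By contrast, Krt18 to Krt8 was 1.17 to 1.43 in α7G and 1.08 to 1.49 in α7E260A:G, with overlapping genotypes. Krt19 made up 57.2% to 61.3% of the summed RPM of simple keratins in α7G and 69.5% to 74.2% in α7E260A:G. The summed CD45-positive markers given above moved with the genotype in the same direction. Among them Chi3l3 had 9938 ± 2878 RPM in α7G and 25387 ± 6971 RPM in α7E260A:G, but Ptprc had 1224 ± 552 and 1267 ± 460 RPM. Krt79, the most abundant keratin outside the 10, had 308 ± 51.7 RPM in α7G and 499 ± 47.4 RPM in α7E260A:G (log2 fold change 0.80, adjusted p = 0.200 by edgeR's quasi-likelihood test). The part of these markers and of Krt79 in the Krt19 ratio was not tested.

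**Figure D4:**
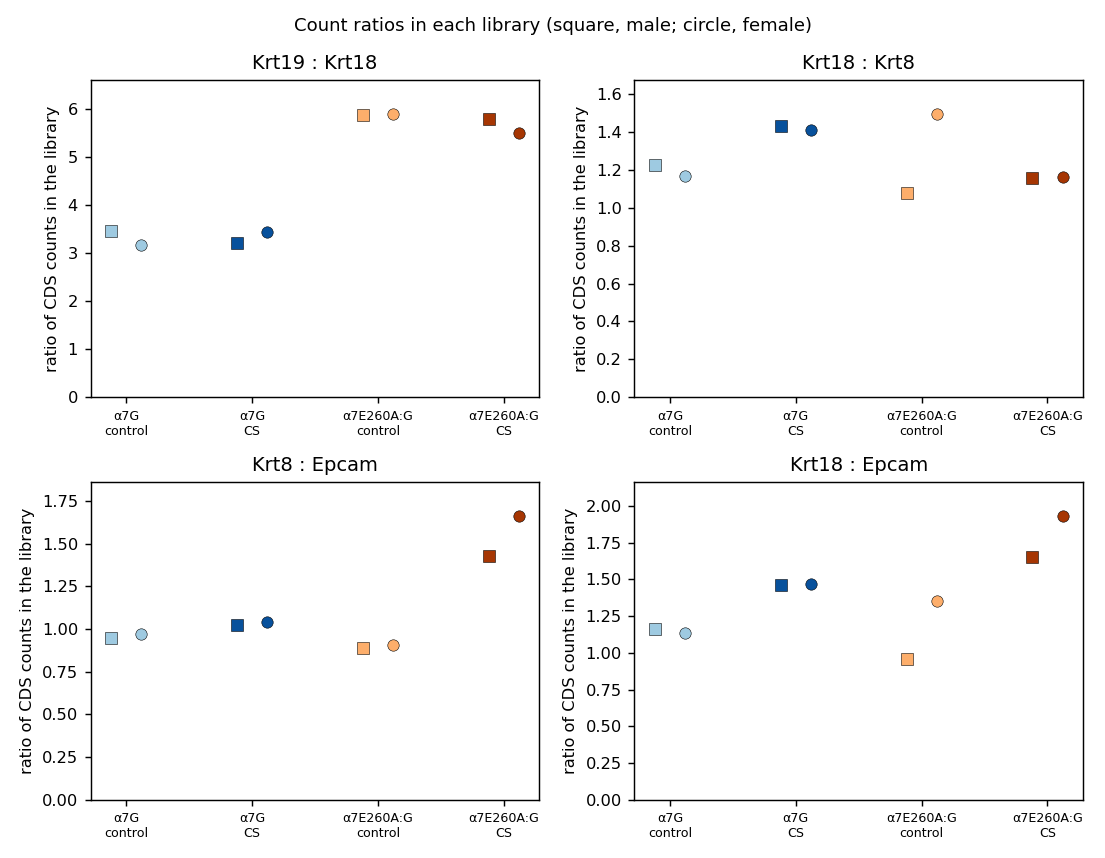
Count ratios in each library by group (square male, circle female; axes from 0). Krt19 to Krt18 lies at 3.18 to 3.47 in α7G and 5.50 to 5.90 in α7E260A:G, Krt18 to Krt8 overlaps between genotypes, and Krt8 to Epcam and Krt18 to Epcam lie higher in every CS library than in any control library.

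Across the 8 libraries, log2 levels of Krt8 and Krt18 had a Pearson r of 0.96, Krt7 and Krt8 of 0.94, and Krt7 and Krt18 of 0.93, whereas Krt19 had 0.66 to 0.73 with these 3. These are descriptions over 8 libraries that also share depth and cell makeup. The genes whose log2 pattern was most like that of Krt8 were Rfxap (r = 0.997), Cyp2j6, Chn1, Lpar3 and Adh7 (r = 0.981). For Krt8 a near copy of the coding sequence was found in the mm9 genome at chr7:24142144-24143601, within the annotated gene Nlrp4e, with 97.7% identity and 54.6% of the 50-base words of Krt8 in common, so that reads from those words match both places. How such reads were handled is not given in the sources used here, and the level of Krt8 relative to the other keratins is uncertain for that reason. The closest copy found for Krt18 (chr13:118246641-118247882, 90.4% identity) shared 0.409% of its words.

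The promoters of the adjacent partners Krt8 and Krt18 and of Krt7 are shown because these 3 genes moved most alike (RefSeq, GRCm38.p6, the 150 bases that end at the base before the transcription start, written in the direction of transcription). Krt7 is chr15:101412253-101412402 on the plus strand, Krt8 chr15:102004343-102004492 on the minus strand and Krt18 chr15:102028066-102028215 on the plus strand. Capitals mark GGGCGG on either strand, the core of the GC box:

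Krt7: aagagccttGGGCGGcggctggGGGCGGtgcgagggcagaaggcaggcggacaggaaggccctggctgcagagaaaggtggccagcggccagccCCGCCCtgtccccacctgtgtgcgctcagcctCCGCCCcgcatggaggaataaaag
Krt8: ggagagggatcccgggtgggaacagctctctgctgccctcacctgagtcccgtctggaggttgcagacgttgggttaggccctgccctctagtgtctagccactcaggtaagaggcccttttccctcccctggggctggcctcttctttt
Krt18: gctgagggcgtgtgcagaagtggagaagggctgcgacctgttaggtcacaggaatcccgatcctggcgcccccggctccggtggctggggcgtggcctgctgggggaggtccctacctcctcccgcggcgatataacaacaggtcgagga

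RefSeq promoters were matched for 5 of the 10 genes (Krt7, Krt8, Krt18, Krt5 and Krt14). In the 250 bases before the start, both strands were searched for GGGCGG (in 32.7% of 32851 promoters), TATAAA (12.4%), CCAAT (33.8%) and TGANTCA (6.75%), which do not overlap one another. Krt7 held 4 copies of GGGCGG and the other 4 promoters held none of these 4 motifs. The 3 promoters, from genes with like levels across libraries, thus did not share a searched motif.

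Among the basal genes Krt15 had most of the reads and the largest fitted CS change within α7E260A:G. Krt15 had 9.26 and 21.5 RPM in the male and female α7G controls and 28 and 17.8 RPM after CS. In α7E260A:G it had 4.26 and 2.10 RPM in the controls (35 and 23 reads) and 18.0 and 44.6 RPM after CS (144 and 403 reads). In α7E260A:G both CS libraries were above both controls, by 4.21 times in males and 21.2 times in females, as were 15.6% of the genes tested without regard to size. In α7G the sexes moved in opposite directions.

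The log2 fold change of Krt15 with CS was 3.33 ± 0.67 in α7E260A:G, a size reached by 0.0807% of the genes tested, and 0.70 ± 0.60 in α7G. By edgeR's quasi-likelihood test the α7E260A:G value had an unadjusted p of 0.00122 and an adjusted p of 1.00, so it was not called. DESeq2 called it, with a log2 fold change of 3.31 and an adjusted p of 0.00043 (1 of 6 members, against 0.257% of genes called), and also called Krt15 for CS averaged over the genotypes (2.0, adjusted p = 0.00519; 0.499% of genes called), where edgeR gave 2.01 ± 0.45 with an adjusted p of 0.612. Without the α7E260A:G CS female library the change in α7E260A:G was 2.34, and without the CS male it was 3.90; in α7G it was 0.19 without the control male and 1.48 without the control female. The interaction was 2.63 ± 0.88 (unadjusted p = 0.018, adjusted p = 1.00 by edgeR, adjusted p = 0.915 by DESeq2), so a difference between the genotypes in the CS change of Krt15 was not shown.

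Krt5, the type II keratin of basal cells, had 28 and 76 reads in the α7G controls, 30 and 29 after CS, 15 and 2 in the α7E260A:G controls and 12 and 74 after CS. The highest libraries were thus the α7G control female (8.11 RPM) and the α7E260A:G CS female (8.19 RPM), and the lowest was the α7E260A:G control female (0.183 RPM). The groups overlapped in α7E260A:G, where male Krt5 was 1.83 RPM in the control and 1.5 RPM after CS. For CS against control it gave a log2 fold change of 2.41 ± 1.08 in α7E260A:G and of -0.64 ± 0.98 in α7G (adjusted p = 1.00 and 0.813 by edgeR's quasi-likelihood test), and without the α7E260A:G CS female library it was 0.53 in α7E260A:G, against 4.48 without the α7E260A:G control male.

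Krt15 was not in fixed proportion to Krt5. Their log2 levels over the 8 libraries had a Pearson r of 0.83. Among the simple keratins, Krt15 had an r of 0.86 with Krt8 and of 0.73 to 0.74 with Krt7, Krt18 and Krt19. Krt5 had 0.35 (Krt19) to 0.77 (Krt8) with the simple keratins. Counts of Krt15 per count of Krt5 ranged from 2.33 to 12 over these libraries. In α7G the ratio was 2.75 and 2.64 in controls and 8.03 and 5.45 after CS, and in α7E260A:G it was 2.33 and 11.5 in controls and 12 and 5.45 after CS, the value of 11.5 resting on 2 reads of Krt5. The genes most like Krt15 in log2 pattern were Rab18 (r = 0.987), Fbxo8, Aspn, Sypl and Muted, and those most like Krt5 were Rnf34 (r = 0.981), 2410002O22Rik, Fam98b, Rarb and Nup62cl; no name was shared between these lists.

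**Figure D5:**
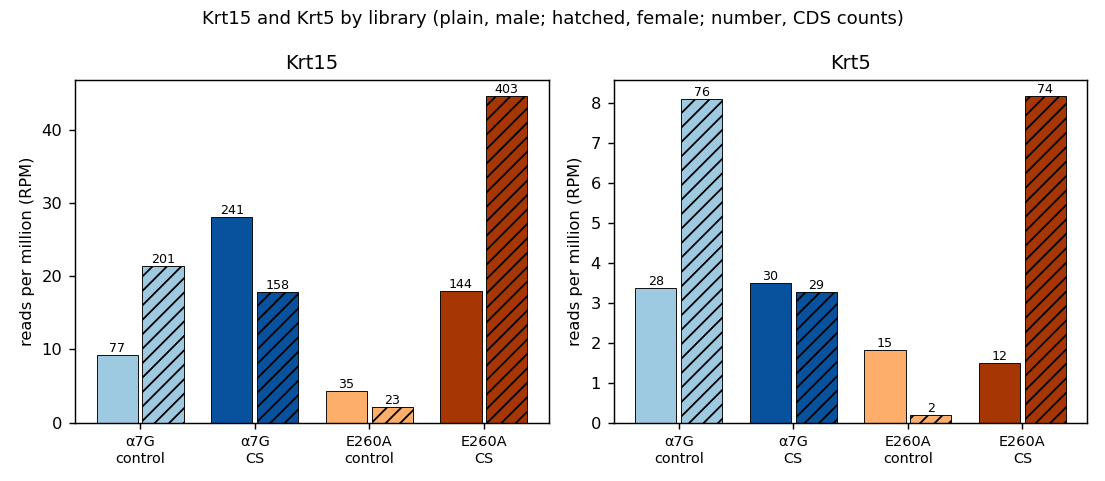
RPM of Krt15 (left) and Krt5 (right) in each library, plain bars male and hatched bars female, with the CDS count above each bar. Krt15 is at 2.10 and 4.26 RPM in the α7E260A:G controls and 18.0 and 44.6 RPM after CS, while Krt5 follows it in the female α7E260A:G libraries but not in the male ones.

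The summed RPM of the 6 basal and proximal genes per 100 RPM of simple keratin was 1.64 and 2.77 in the male and female α7G controls and 2.01 and 1.66 after CS. In α7E260A:G it was 1.05 and 0.412 in the controls and 1.97 and 3.87 after CS. It was thus higher with CS in both sexes of α7E260A:G and in opposite directions in the sexes of α7G. Krt15 supplied 56.5% to 86.7% of the basal sum, so this ratio was largely that of Krt15.

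Other genes of basal and layered epithelium were followed in lists chosen with earlier results known. Of 18 genes of basal cells or of hemidesmosomes, the junctions that anchor basal cells to the basement membrane, 14 were tested. None was called in any of the 5 comparisons, in which 0.0% to 0.0953% of all genes were called. Those shares of all genes also apply to the lists that follow. For α7E260A:G against α7G, 10 of 14 were lower, with a median log2 fold change of -0.67 against 0.03 over all genes. The members with most reads were Dst, which encodes the hemidesmosomal linker of keratin filaments (66.6 against 236 RPM in α7G and α7E260A:G), Bcam, a laminin receptor (174 against 87.4 RPM), and Cd151, a tetraspanin partner of laminin-binding integrins (104 against 88.6 RPM). Dst, a very long gene, reached 505 RPM in the α7E260A:G control male, the library with the steepest slope on CDS length. For CS averaged over genotypes, 8 of 14 were higher, with a median of 0.07.

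Of 12 genes of desmosomes and keratin linkers, 11 were measured and 10 tested, and none was called; 7 of 10 were lower in α7E260A:G than in α7G (median log2 fold change -0.34). Plec, encoding plectin, which links keratin filaments to hemidesmosomes, had 139 and 267 RPM in α7G and α7E260A:G, again with its highest value, 611 RPM, in the α7E260A:G control male. Jup, encoding plakoglobin of the desmosome, had 155 and 125 RPM, and Ppl, encoding periplakin, 44.2 and 40.5 RPM. With CS averaged over genotypes, 6 of 10 were higher (median 0.08).

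Of 14 squamous and hillock genes, 5 reached the minimum count and none was called. All 5 had a fitted log2 fold change above 0 with CS in both genotypes (0.10 to 4.85 in α7G), with a median over the genotypes of 0.66 against 0.01 for all genes. Anxa8, an annexin of layered epithelium, had 107 RPM in controls and 117 RPM after CS, but in α7G females it had 184 RPM in the control and 149 RPM after CS, and Ecm1, an extracellular matrix protein, had 63.7 and 105 RPM. Sprr1a, a cornified envelope precursor, had 27.0 RPM in the α7G CS male, the library that also held 12 of the 23 reads of Krt14, and 4.98 RPM or less elsewhere. Of 37 further keratins, 19 had no read and 6 were tested (Krt79, Krt80, Krt23, Krt78, Krt222 and Krt83), of which none was called; Krt80 had 32.6 to 90.7 RPM and Krt23 had 6.11 to 18.5 RPM.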

How the data were processed

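The deposited files held raw read counts per gene, 1 file for each of 8 libraries. The authors aligned stranded poly(A) reads with STAR to mm9 and counted reads in CDS of GENCODE M1 with htseq-count (versions not given in the sources used here). Counts in CDS leave out UTRs, and whether reads with several matches were kept is not given in the sources used here. The members and gene lists were chosen with earlier results of these data known.

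RPM was the count in each 1000000 CDS counts of the library, and RPKM was RPM per kilobase of CDS. The 13637 genes with mean counts of 10 or more were tested in edgeR 4.0.16 (R 4.3.3, quasi-likelihood, TMM factors) in 1 model of the 4 groups, with Benjamini-Hochberg adjustment and a threshold of 0.05. The model gave CS within each genotype, their interaction, and the averages over genotypes and exposures. These comparisons share libraries. Alternatives were DESeq2 1.42.0, other scalings and filters, sex as a replicate block, an offset for CDS length, separate fits by genotype, and each library left out. The script was tested on simulated data. Log2 levels used log2(RPM + 0.5).

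Named were the members; in each companion list the genes past the test or, where none passed, the 3 with most reads; other tested keratins; and the 5 genes with the highest Pearson r to Krt5, Krt15 and Krt8. Sprr1a and Msln were named after their values were seen. Coding sequences were compared in 50-base words, and copies were sought in mm9 with blastn. The ± values are SDs over libraries or standard errors of the edgeR fit, as marked, and the floor of 3 counts covers counting error only.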

Additional observations from a re-analysis of the deposited data

Results flagged for a closer look

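Krt5 in the 4 α7G libraries had its highest value, the control female at 8.11 RPM, far from the others at 3.27 to 3.49 RPM; the gap was 0.955 of the whole range, above the critical value for 4 libraries. Krt14 in the 4 α7G libraries had its highest value in the CS male (1.40 RPM, 12 reads), with a gap of 0.838 of the range. Of 40 sets of 4 libraries examined these 2 stood out, and chance gives about 1 in 20. For Trp63 the CS change was downward in both male pairs and upward in both female pairs, a difference of 0.574 in mean log2(RPM + 0.5). That difference was not tested, and the counts were 0 to 8.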

How the results depend on the processing

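None of the members was called in any comparison by edgeR, apart from Krt18 for genotype in 1 setting. With sex as a replicate block and a CDS length offset, edgeR gave it a log2 fold change of -0.78 (adjusted p = 0.0418). That setting called 711 of 13637 genes for genotype, 298 of them lower in α7E260A:G. DESeq2 called 1 member, Krt15, for CS in α7E260A:G (0.257% of all genes called) and 1 for CS over both genotypes (0.499%). Of 512 member values under alternatives 492 kept their direction and side of the threshold. Krt18 in the interaction was 0.038 with library size only, and Krt19 for genotype was -0.076 with library size only and -0.0076 with sex as a replicate block. Library size alone moved the median of all genes to -0.14 for CS in α7G and 0.21 for the interaction.

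Over all genes, the calls for CS in α7G, CS in α7E260A:G, interaction, genotype and CS over both were 0, 1, 0, 13 and 0. They were 25, 35, 11, 516 and 68 with DESeq2. With sex as a replicate block they were 0, 0, 0, 43 and 0, with the CDS length offset 0, 2, 1, 485 and 3, and with both 0, 2, 0, 711 and 4. With no filter they were 0, 3, 0, 69 and 1, with a mean count of at least 200 they were 0, 0, 0, 6 and 0, and with library size only CS in α7E260A:G gave 0. Separate fits gave 980 in α7G and 0 in α7E260A:G. At an unadjusted p under 0.05 the edgeR counts were 915, 428, 297, 1562 and 1041. The causes were not tested. No pairing of same-sex samples beyond that label is given in the sources used here. Of 6 correlations of their deviations, 3 were over 0.1 (-0.0033 to 0.55), the highest between α7E260A:G control and CS.

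Leaving out each library gave 0 to 0, 0 to 142, 0 to 97, 1 to 646 and 0 to 100 calls. The highest counts came without the α7E260A:G control male (142, 97 and 100) or the α7E260A:G control female (646). No member was called in these fits. Krt5 ranged from -1.16 to 0.18 for CS in α7G (above 0 without the α7G control female) and from -0.065 to 1.92 for CS over both (below 0 without the α7E260A:G CS female), and Krt19 from -0.18 to 0.19 for genotype. In the interaction Krt7 ranged from -0.93 to 0.12, Krt8 from -0.13 to 0.56, Krt18 from -0.57 to 0.29 and Krt19 from -0.60 to 0.21. The median basal to simple ratio per 100 was 0.429 without Krt15. With 2 libraries per group that differ in sex, a change confined to 1 sex could not be separated from spread.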
